A study of Sus scrofa with 9 samples.

Results

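The comparison described here sets endothelial cells of pig coronary artery at passage 4 against the same kind of cells at passage 1. It uses 6 arrays, 3 at passage 4 and 3 at passage 1, out of 9 arrays in the series. The passage 1 cells had been in primary culture for a week and are the controls, and the passage 4 cells had then been passaged weekly, are called senescent in the labels and were collected at basal condition like the controls. Total RNA was labelled from the same stated input in both groups and hybridised to Affymetrix porcine expression arrays with 1 array per sample. The other 3 arrays hold regenerated cells and enter only to share the estimate of spread and as a further reference for a few genes. No label ties an array to an animal or a culture of its own, so the p-values speak of array-to-array spread alone, and this may be purely technical.

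Endothelial cells line the inside of every blood vessel, where they hold back clotting, set the tone of the underlying muscle and admit leukocytes on demand. Endothelial cells taken from an artery divide in culture and are carried forward by passaging, in which the sheet is detached and replated. Repeated passaging drives many primary cells towards replicative senescence, a lasting arrest in which the cell cycle inhibitors p16 and ARF of the CDKN2A locus and p21 are classic markers. Type I interferons are secreted proteins that switch on a large set of antiviral genes through the STAT and IRF transcription factors.

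Values are MAS5 signals, an intensity per probe set, and differences are in log2(signal + 16), so a low gene's change is understated. After control probe sets were set aside, 15299 probe sets were bright enough to test, and 5494 genes were named, each represented by its brightest tested probe set. A gene rose or fell where its limma adjusted p was under 0.05. Signals are listed in the order of replicates 1, 2 and 3. In a bulk sample, fewer cells of a type and less RNA per cell cannot be told apart.

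The arrays did not fall cleanly by passage on their own control probes. The 5-prime minus 3-prime log2 difference was averaged over 6 pairs of probe sets of the dap and thr spike-in transcripts. It was -1.99 in passage 1 replicate 1 and between -2.09 and -1.77 at passage 4. In passage 1 replicates 2 and 3 it was -4.87 and -4.25. Passage 1 replicate 1 is thus the only control array labelled like passage 4. Signal of the 28S ribosomal RNA probe set ran from 7821 to 9985 at passage 4 and was 5837, 2577 and 1349 at passage 1. All 3 regenerated arrays were labelled like passage 1 replicates 2 and 3, at -5.19 to -4.36. Genes called between the passages are therefore also given against replicate 1 alone, which is what the same model returns with the labelling kind as a block. Its standard errors are larger, with a median of 0.35 against 0.27 in log2, since a single control array stands for passage 1. The part of labelling in any result below was not tested beyond these values.

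Of the 15299 probe sets, 415 rose, which is 2.71% of those tested, and 318 fell, which is 2.08%. All 733 lay on the same side of passage 1 replicate 1 as of the passage 1 mean. In 732 of them passage 4 and passage 1 arrays did not overlap, so lack of overlap sets no gene that passed apart from the others. Replicate 1 lay past the midpoint between the mean of the other controls and the passage 4 mean more often for rises than for falls. This was so for 79 of the 415 rises and for 22 of the 318 falls. A difference of at least 2-fold against replicate 1 remained for 251 rises (60.5%) and 245 falls (77.04%). Among named genes 103 of 5494 rose (1.87%) and 162 fell (2.95%). Against replicate 1 alone 29 genes passed upward (0.528%) and 37 downward (0.673%), and 55 genes, or 1% of those tested, passed in both comparisons, 21 of them rises and 34 falls. The median change over all genes was -0.02, and 0.04 against replicate 1. By sign alone, 48.14% of genes were higher at passage 4 than at passage 1, and 54.04% were higher than in replicate 1.

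**Figure D1:**
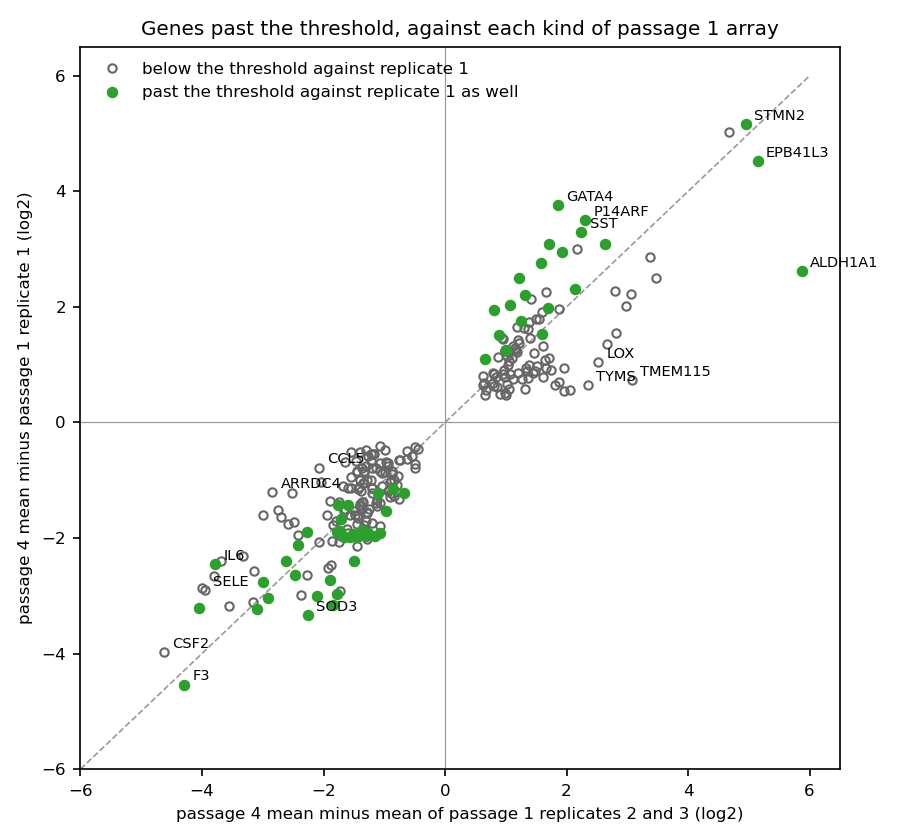
Each point is a gene past the threshold. The horizontal axis is the log2 difference of the passage 4 mean from passage 1 replicates 2 and 3, the vertical axis the difference from replicate 1, the dashed line marks equality, and filled points (55 genes) also pass against replicate 1. All points share the sign on both axes, and TYMS, LOX and TMEM115 lie well below the line.

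The largest rises that held in both comparisons were those of STMN2, EPB41L3 and ALDH1A1. STMN2 encodes a neuronal microtubule-destabilising protein, and its signals were 84.6, 148 and 67.6 at passage 1 and 5207, 1018 and 8757 at passage 4. This was a log2 rise of 5.02 (SE 0.65, adjusted p 0.00235), and of 5.17 against replicate 1 (adjusted p 0.0353). The passage 4 arrays differed among themselves more than the passage 1 arrays did, yet none came near them. EPB41L3, a membrane-to-actin linker, went from 138, 60.1 and 116 to 2936, 3726 and 4020.4, a tight group on either side. Its log2 rise of 4.94 (SE 0.37, adjusted p 0.000246) had the smallest adjusted p of the genes that rose. ALDH1A1, which makes retinoic acid from retinal, stood at 871, 69.9 and 85.04 at passage 1 and 5995, 4203 and 6377 at passage 4. Here replicate 1 was high for a control, so the rise was 4.79 against all controls (adjusted p 0.00395) and 2.62 against replicate 1 (adjusted p 0.006302).

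A transcript of the CDKN2A locus was among these genes. The probe set annotated P14ARF, the alternative reading frame product that stabilises p53, had signals of 23.2, 127 and 40.4 at passage 1. At passage 4 they were 410.3, 359.97 and 525, so every passage 4 array was above every control. The log2 rise was 2.7003 (SE 0.42, adjusted p 0.00515) and 3.497 against replicate 1 (adjusted p 0.0131). Which product of the locus the probes match is not given in the sources used here. Regenerated cells lay at 185, 306 and 327, and passage 4 did not pass the test against them (log2 difference 0.66, adjusted p 0.329).

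SST, annotated as the peptide hormone somatostatin, rose from 1091, 1618 and 3217 to 19097, 8842 and 7639, and GATA4, a transcription factor of heart and endocardium, from 16.98, 41.3 and 249.5 to 497, 368 and 436. The SST rise of 2.597 had an adjusted p of 0.00478, and 0.0149 against replicate 1. For GATA4 the spread between controls was wide, replicate 3 lying close to passage 4, and its rise of 2.49 only just passed (adjusted p 0.0482, and 0.047997 against replicate 1). FST encodes follistatin, a secreted antagonist of activins, and its signals were 168, 309 and 512 at passage 1 and 1353, 1362 and 1007 at passage 4. That is a log2 rise of 1.98 (adjusted p 0.0185) and of 2.76 against replicate 1 (adjusted p 0.0276). Amino acid transporters were present as well. SLC1A1, a glutamate carrier, went from 52.8, 111 and 55.3 to 932, 254 and 783, and SLC38A1, a glutamine carrier, from 30.1, 87.8 and 68.6 to 294, 204 and 651. The remaining rises of this group were TSPAN7, a tetraspanin (log2 2.199, adjusted p 0.00145), GPRC5C, an orphan receptor (log2 2.17, adjusted p 0.02002), and ENC1, a kelch-family protein (log2 1.79, adjusted p 0.00456).

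The largest falls that held in both comparisons began with F3, tissue factor, the starter of the extrinsic clotting cascade. Its signals were 942, 994 and 635 at passage 1 and 49.4, 16.9 and 16.6 at passage 4, a log2 difference of -4.38 (SE 0.42, adjusted p 0.000591). C1R, the protease that opens the classical complement pathway, fell from 3829, 6109.9 and 7584 to 467, 768 and 171. IL6, the inflammatory cytokine, went from 1143, 3624 and 2297 to 174, 151 and 279.7. Replicate 1 was the lowest control for both C1R and IL6, and the log2 differences from it were still -3.22 and -2.46 (adjusted p 0.0386 and 0.0212). C1H15orf48, a small mitochondrial protein gene induced in inflammation, had 893, 1389.8 and 464 and then 88.2, 89.4 and 65.5, with all passage 4 arrays within a narrow band. PDLIM3, a Z-disc and stress fibre protein, went from 619, 889 and 358 to 58.2, 31.5 and 116. SOD3, the extracellular superoxide dismutase, had 807, 653 and 210.2 at passage 1 and 155, 36.9 and 43.6 at passage 4. In log2, PDLIM3 fell by 2.95 (adjusted p 0.00313) and SOD3 fell by 2.62 (adjusted p 0.0172). The other falls were IRF7, CDA, ZBP1, ITGB3, RIMKLB and SLC46A2, with log2 changes between -2.92 and -2.28 and adjusted p-values up to 0.0105. Of these, CDA, cytidine deaminase of pyrimidine salvage, had 779, 635 and 1282 and then 83.5, 131 and 217, and RIMKLB, an enzyme that joins glutamate to N-acetylaspartate, had 67.3, 63.2 and 114 and then 0.633, 0.712 and 8.98, near 0 in every passage 4 array.

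**Figure D2:**
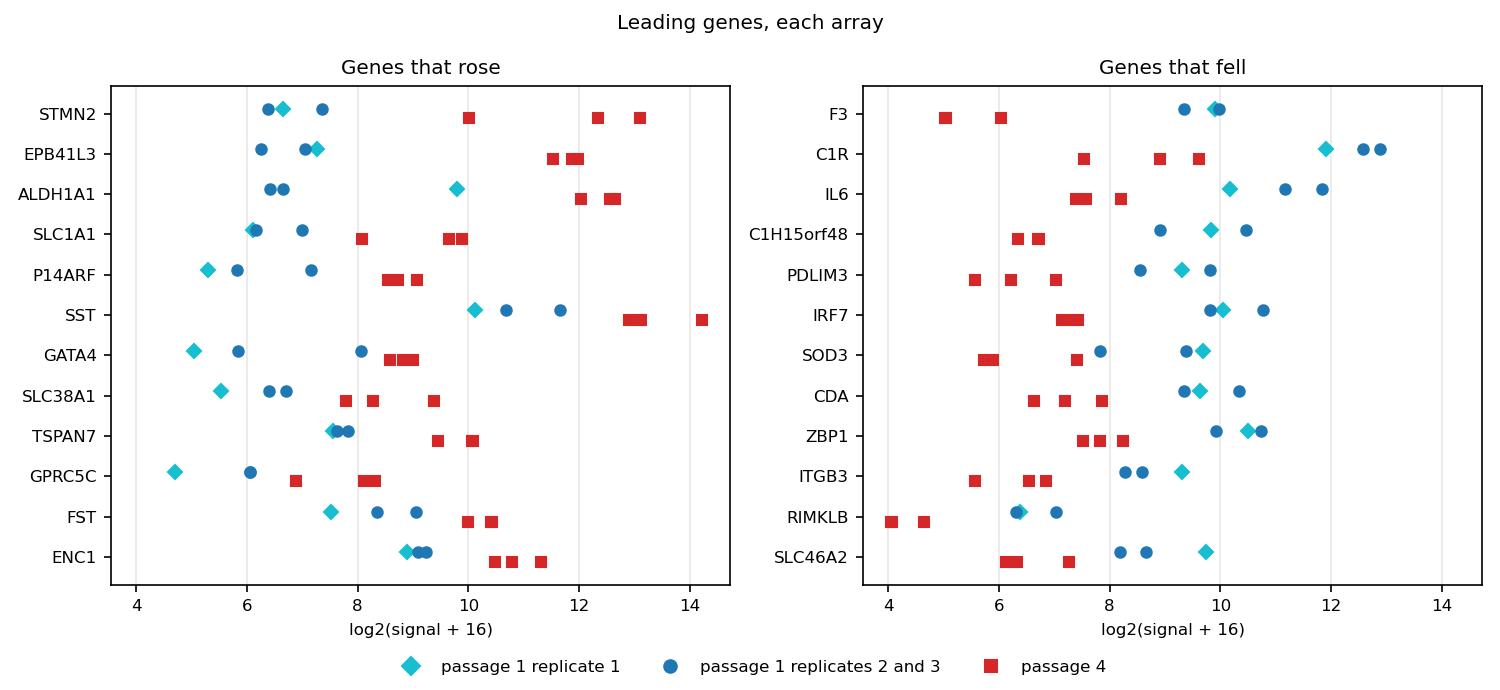
Signal of each array on a log2(signal + 16) axis for the 12 largest rises and 12 largest falls that passed in both comparisons. Diamonds are passage 1 replicate 1, circles passage 1 replicates 2 and 3, squares passage 4. In none of these genes do the passage 4 arrays overlap the passage 1 arrays, as in 732 of all 733 probe sets past the threshold.

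Passage 4 and regenerated arrays differ in labelling kind without exception, so a difference between these groups and one of labelling cannot be told apart. Against regenerated cells, where 5.86% of genes were higher and 4.88% lower at passage 4, 6 of those 12 rises were also higher at passage 4 and 1, SLC1A1, was lower. SLC1A1 read 2104, 1838 and 1726 in regenerated cells (adjusted p 0.0214). Of the 12 falls, 5 were also lower at passage 4 than in regenerated cells. RIMKLB was such a gene, with 106, 120.1 and 94.98 in regenerated cells (adjusted p 0.000780). For IL6 the regenerated arrays read 177, 232 and 156, close to passage 4 (log2 difference 0.06, adjusted p 0.934). Both comparisons share the passage 4 arrays.

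Functions were then read through 38 gene lists, of which 8 held only rises among the members that passed, 15 only falls, 6 both and 9 neither. Each count below of members that rose or fell is to be read against the 1.87% of genes that rose and the 2.95% that fell. Counts of members by sign alone are to be read against the 48.14% of all genes that were higher. Against the single control array that share was 54.04%.

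**Figure D3:**
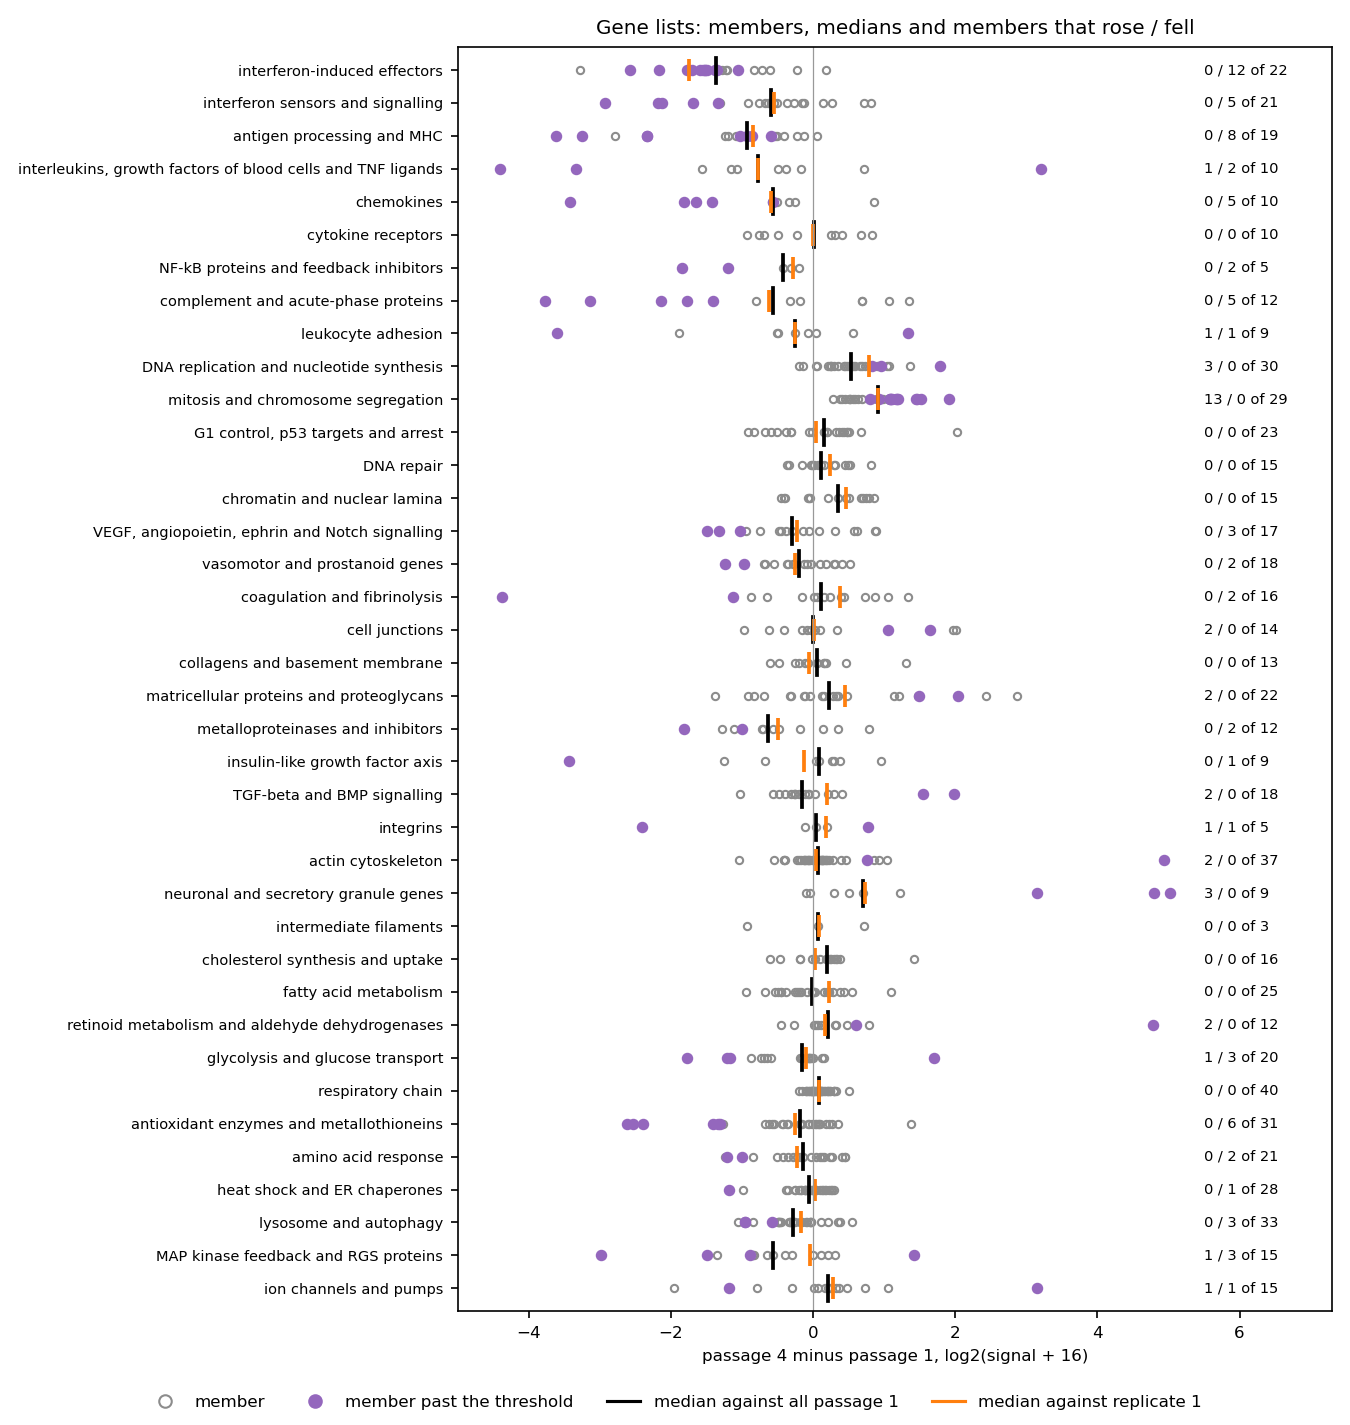
Each row is a gene list and each point a tested member's log2 difference, passage 4 minus passage 1; filled points passed the test. Black bars are medians against all passage 1 arrays, orange bars against replicate 1, and the right column counts members that rose / fell of those tested. Interferon effectors lie to the left with 12 of 22 falls, and mitosis genes to the right with 13 of 29 rises.

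Interferon-induced effectors, the antiviral proteins made in response to interferon, were lower at passage 4. Of 22 measured, 12 fell and 0 rose, with a median of -1.36. Against replicate 1, which had the highest basal level of the list among the controls, the median was -1.75, all 22 were lower and 5 passed. IFIT3, which binds foreign RNA complexes, went from 10180, 8927 and 6400.4 to 1946, 2870.3 and 3004. XAF1, a pro-apoptotic interferon target, went from 2511, 1164 and 1676 to 380.2, 275 and 460.3, and ISG20, an exonuclease that degrades viral RNA, from 1090.4, 1068 and 715 to 253, 189 and 385. No passage 4 array reached a control in any of them, and their log2 differences of -1.699, -2.17 and -1.77 passed in both comparisons (adjusted p 0.00481, 0.0107 and 0.00522). MX2, a dynamin-like restriction factor, and DTX3L, a ubiquitin ligase partner of PARP9, also passed in both, at log2 -1.52 and -1.34. RSAD2, viperin, fell by 2.58 (adjusted p 0.00891), but missed against replicate 1 (adjusted p 0.0524). ISG15, a ubiquitin-like modifier, read 13807, 14600.1 and 15811 and then 3605, 4406 and 7198, lower in all passage 4 arrays and unevenly so (log2 -1.597, adjusted p 0.0233, against replicate 1 log2 -1.51 with adjusted p 0.205). OAS1, the 2-prime-5-prime oligoadenylate synthetase, had the lowest log2 difference of the list, -3.28, yet did not pass (adjusted p 0.223). Its passage 4 arrays were far apart at 1122, 2134 and 88.9, against 5619, 5635 and 7308 at passage 1. The number of members that fell was 5 without passage 4 replicate 1, 5 without passage 4 replicate 2 and 6 without passage 1 replicate 2.

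The sensors and transcription factors upstream of these effectors held fewer calls. Of 21 measured, 5 fell and the median was -0.59, or -0.55 against replicate 1, where 2 passed. IRF7, the factor that amplifies interferon production, read 1049, 883 and 1732 and then 143, 125 and 156, and DDX60, a helicase cofactor of RNA sensing, 873, 389.7 and 361 and then 86.8, 88.5 and 121. Both passed in both comparisons, at log2 -2.92 and -2.17 (adjusted p 0.00116 and 0.00943). DDX58, the cytosolic RNA sensor RIG-I, fell by 2.12 (adjusted p 0.01097, against replicate 1 log2 -2.51 with adjusted p 0.0549), IRF8 fell by 1.696 (adjusted p 0.0194, against replicate 1 log2 -1.85 with adjusted p 0.113) and IRF1 fell by 1.34 (adjusted p 0.004503, against replicate 1 log2 -1.15 with adjusted p 0.0674). The ligand itself was measured by the gene IFNB1, interferon beta, chosen here after its values were seen. It read 81.7, 199 and 122 at passage 1 and 21.8, 7.28 and 11.2 at passage 4, the latter below the 40th-percentile signal of every array (log2 -2.31, adjusted p 0.00855, and 0.156 against replicate 1). ZBP1, a nucleic acid sensor on no list, fell from 1435, 1699 and 953 to 211, 167 and 288 and passed in both comparisons (log2 -2.53, adjusted p 0.00395).

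Antigen presentation genes were also lower. Of 19 members, 8 fell, the median was -0.93 and 18 lay below 0. Against replicate 1 the median was -0.84, with 0 passing. The class II chains, which present peptides to CD4 T cells, led. SLA-DRA read 292, 455 and 939.8 at passage 1 and 74.1, 30.2 and 1.93 at passage 4, SLA-DQB1 487, 1272 and 1175 and then 118, 102 and 39.4. CD74, the invariant chain, read 162, 177 and 692 and then 51.8, 50.5 and 25.5, and SLA-DQA1 221, 276 and 1053 and then 62.4, 79.9 and 59.9. In SLA-DRA, CD74 and SLA-DQA1 passage 1 replicate 3 was the highest control, and replicate 1 was the lowest in all 4. Their log2 differences were -3.62, -3.26, -2.34 and -2.34 (adjusted p 0.00537, 0.00517, 0.0194 and 0.0207). Against replicate 1 they were smaller, at -2.87, -2.39, -1.64 and -1.52, and none passed (adjusted p 0.113, 0.113, 0.283 and 0.304). Some leukocyte markers were highest in that same control array, 5 of the 10 with a probe set being higher there than in any of the other passage arrays. AIF1, FCER1G and TYROBP read 128, 80.6 and 57.1 in passage 1 replicate 3, against at most 13.7, 11.5 and 14.1 in replicates 1 and 2. PTPRC, the pan-leukocyte marker CD45, read at most 25.8 in any of these 6 arrays, which is below their 40th percentiles of 37.2 to 49.2. CD3E, ITGAM and LAPTM5 were not raised there, at 7.301, 9.16 and 5129.9 against 17.6, 12.1 and 6709.6 in the highest control. LAPTM5 was the only leukocyte marker bright enough to test, and the summed signal of the others ran from 129 to 429 at passage 1 and from 144 to 192 at passage 4. The part of leukocytes in the class II values was not tested. Among class I genes the log2 differences were -1.03 in SLA-6 and -0.93 in SLA-3 (adjusted p 0.00509 and 0.0356), and -0.59 and -0.86 in the proteasome activator chains PSME1 and PSME2 (adjusted p 0.0345 and 0.00871). Against replicate 1 these were -0.796, -0.999, -0.796 and -0.84 (adjusted p 0.0959, 0.196, 0.0676 and 0.0923). Without passage 4 replicate 2 or replicate 3, 4 members fell.

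**Figure D4:**
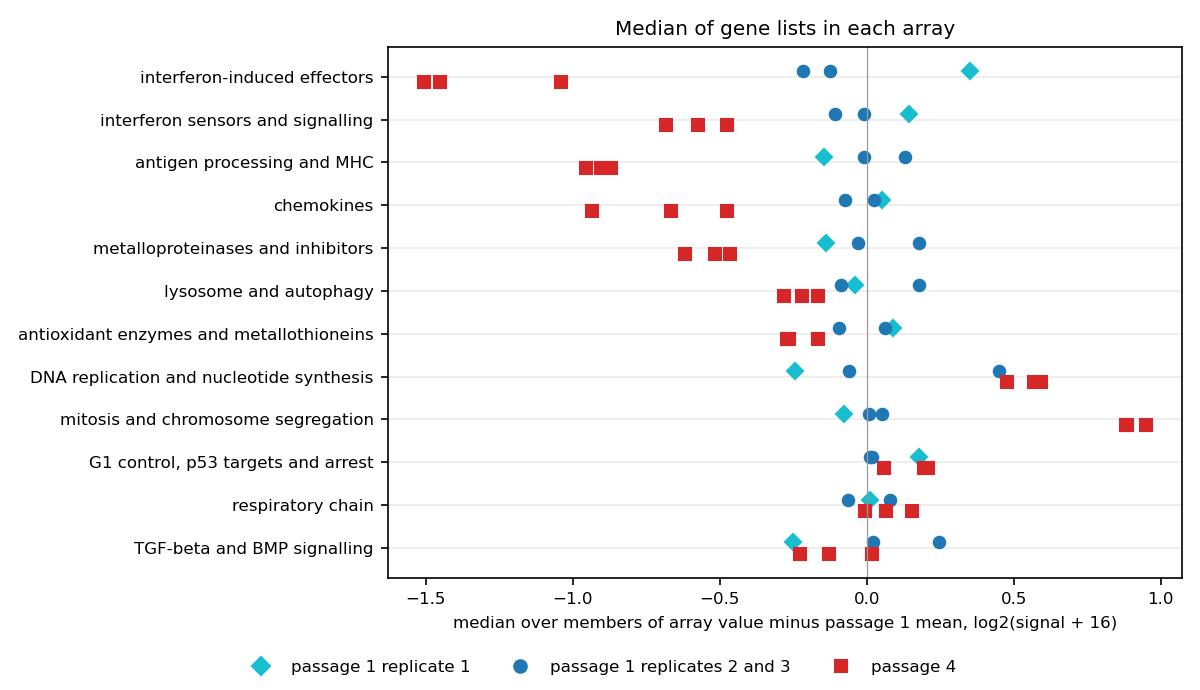
Horizontal axis: median over a list's members of the array's value minus the passage 1 mean, in log2(signal + 16). Diamonds are passage 1 replicate 1, circles passage 1 replicates 2 and 3, squares passage 4. Passage 4 lies apart from all controls for interferon effectors and mitosis, while for DNA replication passage 1 replicate 3 (0.45) lies next to the lowest passage 4 array (0.48).

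Among secreted inflammatory proteins more passed downward than upward. Among 10 chemokines 5 fell (median -0.57, and -0.59 against replicate 1, where 2 passed). CCL4, a monocyte attractant, read 459.9, 461 and 387 and then 149.9, 83.5 and 110.1, and CXCL16, a membrane-bound attractant of CXCR6-bearing cells, 2718, 1278 and 1869 and then 794, 583 and 697. Both passed in both comparisons, at log2 -1.82 and -1.42 (adjusted p 0.00438 and 0.0137). CCL8 fell by 3.42 (adjusted p 0.0115, against replicate 1 log2 -2.65 with adjusted p 0.193) from 317, 1938 and 261 to 21.5, 57.999 and 37.3, with replicate 2 the high control. CCL2, the monocyte chemoattractant, fell by 0.56 in log2 from the high signals 21919, 21037 and 21462 to 13422, 15464 and 14959 (adjusted p 0.0315, against replicate 1 log2 -0.59 with adjusted p 0.213). CCL5 passed (log2 -1.64, adjusted p 0.038997), but against replicate 1 the difference was -0.78 (adjusted p 0.502). The count of chemokines that fell was 3 without passage 1 replicate 2 or 3 or passage 4 replicate 1 or 3, and 2 without passage 4 replicate 2. Of 10 interleukins and related ligands, 2 fell, IL6 and CSF2, and 1 rose. CSF2, the granulocyte-macrophage growth factor, read 2073, 8910.2 and 1204 and then 40.3, 309 and 114 (log2 -4.41, adjusted p 0.00569, against replicate 1 log2 -3.97 with adjusted p 0.0928). The rise was IL7, the lymphocyte survival cytokine, which read 60.7, 47.8 and 28.7 and then 331, 413 and 1141 (log2 3.21, adjusted p 0.00745, and 0.113 against replicate 1). Of 10 cytokine receptors 0 rose and 0 fell by limma (4 had an unadjusted p under 0.05), and their median was 0.01.

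In the complement list the falls included its proteases. Of 12 members 5 fell, among them the classical pathway proteases C1R and C1S, their inhibitor SERPING1 and the alternative pathway protease CFD. C1S read 6459.98, 6570.1 and 6788 and then 782, 1749 and 284, SERPING1 2805, 4215 and 3103 and then 785, 1063 and 484. Both sets of controls lay clear of passage 4, with log2 differences of -3.14 and -2.14 (adjusted p 0.00537 and 0.00223). Against replicate 1 they were -3.11 and -1.8997 and SERPING1 passed (adjusted p 0.0698 and 0.0471). CD59, which blocks the membrane attack complex, fell by 1.77 (adjusted p 0.00807, against replicate 1 log2 -1.702 with adjusted p 0.0923) and CFD fell by 1.41 (adjusted p 0.0214, against replicate 1 log2 -1.14 with adjusted p 0.241). The pair of members that passed upward did so only against replicate 1: CD55, which speeds decay of C3 convertases, read 33.1, 235 and 95.4 and then 263, 244 and 293 (log2 2.52, adjusted p 0.0353), and CLU, clusterin, 2472, 4127 and 6661 and then 6919.7, 10640.3 and 8444 (log2 1.78, adjusted p 0.0437). Their changes against all controls, 1.34 and 1.06, did not pass (adjusted p 0.138 and 0.0844).

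The NF-kB and leukocyte adhesion lists held a few calls. Of 5 genes on the NF-kB list 2 fell, and 0 against replicate 1. The NF-kB count was 1 without passage 1 replicate 1 or 2 or passage 4 replicate 1, 2 or 3. NFKBIA, the inhibitor that NF-kB itself induces, read 5041, 4334 and 4289 and then 1371, 2366 and 2368 (log2 -1.196, adjusted p 0.00944, against replicate 1 log2 -1.35 with adjusted p 0.0593), and TNFAIP6, a hyaluronan-binding protein, fell by 1.85 (adjusted p 0.0399, against replicate 1 log2 -2.06 with adjusted p 0.186). Of 9 adhesion molecules, 1 fell and 1 rose, and 0 passed against replicate 1. The count of adhesion genes that rose was 0 without passage 1 replicate 2 or 3 or passage 4 replicate 1 or 2, and of those that fell 2 without passage 1 replicate 1 or passage 4 replicate 2. SELE, E-selectin, on which leukocytes roll, read 2919, 7686 and 4848 and then 188, 734 and 384 (log2 -3.604, adjusted p 0.00424, against replicate 1 log2 -2.897 with adjusted p 0.0756). SELP, P-selectin, read 2262, 9331 and 7575 and then 949, 2929 and 1126, with replicate 1 inside the passage 4 range, and did not pass (adjusted p 0.0537). ALCAM rose by 1.33 (adjusted p 0.0246), and by 0.97 against replicate 1 (adjusted p 0.304).

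Genes of mitosis were higher in the cells labelled senescent. All 29 tested members lay above 0, 13 rose, and the median was 0.91 against all controls and 0.91 against replicate 1. Against replicate 1, 2 members passed: AURKB, the kinase that corrects chromosome attachment, which read 275, 455 and 409 and then 902, 778 and 766, and UBE2C, a ubiquitin-conjugating enzyme of mitotic exit, which read 1627, 2326 and 2117 and then 3598, 3294 and 3596. Against all controls the log2 rises of AURKB and UBE2C were 1.098 and 0.799 (adjusted p 0.0297 and 0.0283). CENPF, a kinetochore protein, read 190.4, 170.5 and 239 and then 703, 737 and 947, and CCNA2, cyclin A2, 118, 69.3 and 76.3 and then 274, 239.5 and 321. BIRC5, survivin of the chromosomal passenger complex, read 578, 774 and 612 and then 2097, 1595 and 1735. In CENPF, CCNA2 and BIRC5 every passage 4 array lay above every control (log2 1.91, 1.52 and 1.45, adjusted p 0.006902, 0.0126 and 0.009403), and none passed against replicate 1 (log2 1.96, 1.12 and 1.61, adjusted p 0.0674, 0.196 and 0.0594). HMMR, a spindle protein, rose by 1.47 (adjusted p 0.0437, against replicate 1 log2 0.91 with adjusted p 0.449) at lower signal. PLK1 and AURKA, the kinases of mitotic entry, had log2 differences of 0.91 and 1.05 and did not pass (adjusted p 0.261 and 0.0621). The count of members that rose was 5 without passage 1 replicate 2, 8 without passage 1 replicate 3, 5 without passage 4 replicate 1 or replicate 2, and 2 without passage 4 replicate 3.

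Replication genes lay mostly above 0, with few calls. Of 30 members 3 rose, 28 lay above 0, and the median was 0.53, or 0.78 against replicate 1, where 0 passed. TYMS, thymidylate synthase, read 2303, 665 and 727 and then 3516, 3865 and 3504, and its rise of 1.79 (adjusted p 0.0443) came down to 0.65 against replicate 1 (adjusted p 0.582). CDC45, a replicative helicase subunit, read 379.7, 389 and 532 and then 729, 953 and 883 (log2 0.96, adjusted p 0.0364, against replicate 1 log2 1.13 with adjusted p 0.139), and RRM1, of ribonucleotide reductase, rose by 0.83 (adjusted p 0.03597, against replicate 1 log2 0.47 with adjusted p 0.432). MCM5, another helicase subunit, read 292, 497 and 780.3 and then 1003, 1033 and 1003, with no overlap between the groups, and did not pass (adjusted p 0.197). Without passage 1 replicate 2, or without any of the passage 4 arrays in turn, 0 members rose, and without passage 1 replicate 3 1 did.

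The list of growth arrest genes showed no such shift. Of 23 genes of G1 control and p53 response 0 rose and 0 fell by limma, with a median of 0.16, and 5 had an unadjusted p under 0.05. The arrest list had 1 rise and 1 fall without passage 1 replicate 1, and 1 fall without replicate 3. CDKN2C, an inhibitor of CDK4 and CDK6, had the largest difference, from 61.6, 2.18 and 5.54 to 142, 56.001 and 161, which missed the threshold (log2 2.02, adjusted p 0.0512, and 0.6296 against replicate 1). GLB1, the lysosomal galactosidase behind the usual senescence stain, read 5906, 7786 and 2274 and then 3131, 2719 and 1832, overlapping between the groups (log2 -0.91, adjusted p 0.187). P14ARF, described above, was the exception outside the list. Among 15 DNA repair genes and 15 chromatin and lamina genes none rose or fell, with 2 and 5 at an unadjusted p under 0.05 and medians of 0.12 and 0.35. The chromatin list had 1 fall without passage 1 replicate 1 and 1 rise without replicate 3.

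Some defining markers of endothelium were bright at both passages, and so were some of smooth muscle. PECAM1 read 8645, 7910.5 and 7126 at passage 1 and 7343, 8938 and 9079 at passage 4, CDH5, VE-cadherin, 9096, 10855 and 9230.1 and 9924, 9106 and 8524, and ECSCR 7445, 8797 and 9331 and 8194, 6914 and 7455. These overlapped between passages. TIE1 read 973, 1501 and 1342 and then 596, 836 and 810, and CLDN5 643, 731 and 512 and then 244, 222 and 538. Their log2 differences were -0.75 and -0.97, without passing (limma adjusted p 0.305 and 0.104), and -0.39 and -1.02 against replicate 1. CD34 went the other way, at log2 0.57 (limma adjusted p 0.355) and 1.35 against replicate 1. Probe sets of VWF and KDR were dim in every array, at no more than 39.3 and 23.6. Of 14 endothelial markers with a probe set 12 were tested, 1 fell (NOS3) and 0 rose, and their summed signal ran from 32784 to 40317 at passage 1 and from 33594 to 34408 at passage 4. Of the 7 smooth muscle markers with a probe set, CALD1, caldesmon, read 12111, 10793 and 8622 at passage 1 and 9772, 10125 and 9704 at passage 4, and TAGLN, transgelin, 10230.5, 10221 and 7707 and 10479, 5674 and 5866, bright in every array. ACTA2, smooth muscle actin, varied within both groups, at 13189, 2519 and 196 and 10501, 485 and 1140.1, while MYLK and DES were below the 40th percentile in every one of these arrays. The summed smooth muscle signal ran from 17274 to 36453 at passage 1 and from 17248 to 31963 at passage 4. The summed signal of 4 pericyte markers ran from 186 to 201 at passage 1 and from 258 to 705 at passage 4. MCAM among them read 124, 71.4 and 95 and then 335, 140 and 538, without passing (limma adjusted p 0.096). PDPN, a lymphatic marker, read 2705 in passage 4 replicate 3 and at most 394 in the other passage arrays. Of 3 cardiomyocyte markers tested 0 rose and 1, PLN, fell (log2 -1.69, limma adjusted p 0.0198, against replicate 1 log2 -2.15). The part of these cell types, or of smooth muscle cells, was not tested.

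**Figure D5:**
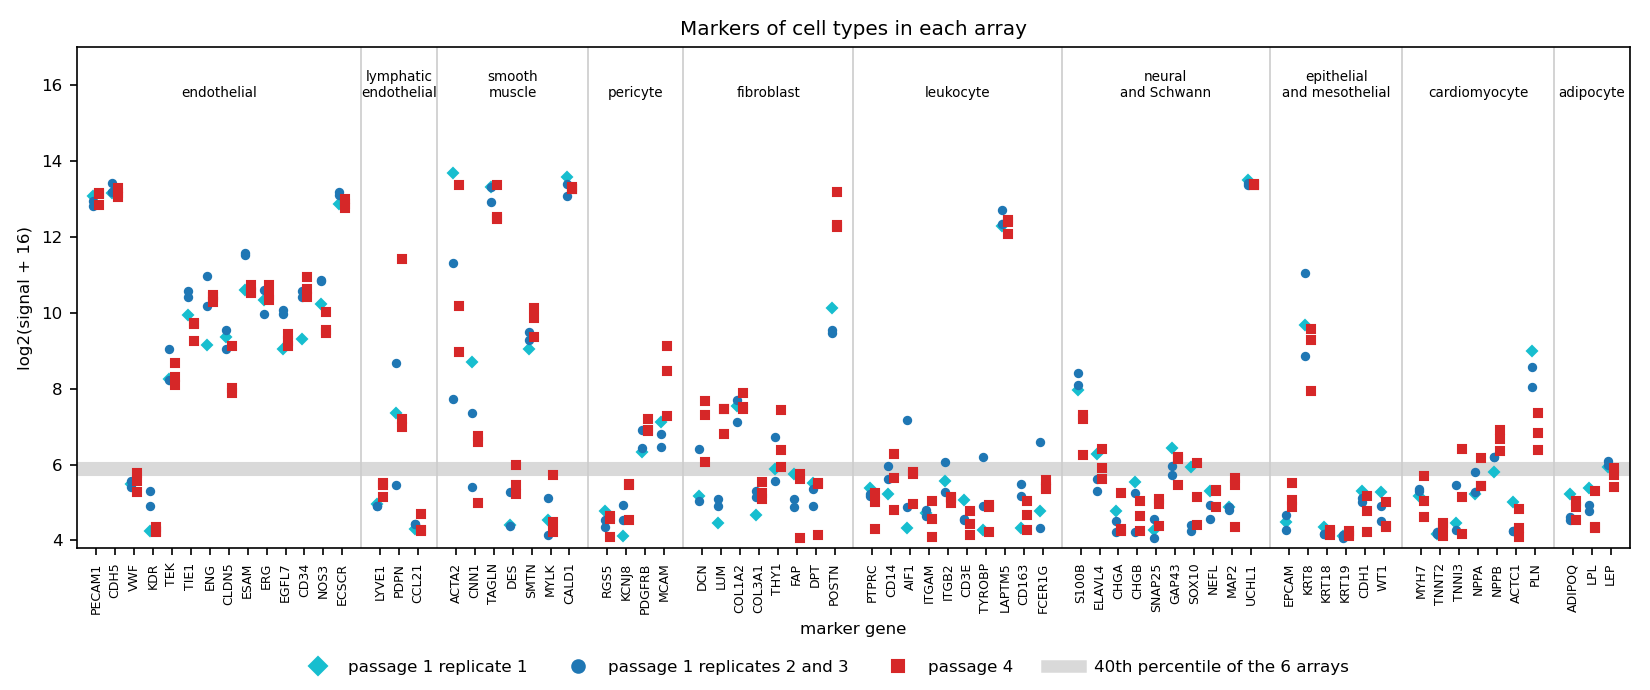
Vertical axis: log2(signal + 16) of the brightest probe set of each marker, grouped by cell type; diamonds are passage 1 replicate 1, circles passage 1 replicates 2 and 3, squares passage 4, and the grey band spans the 40th percentiles of the arrays. PECAM1, CDH5 and ECSCR stay bright at both passages, while most leukocyte, epithelial and cardiomyocyte markers sit in or below the band.

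Within the endothelial programme, a few signalling genes fell. Of 17 genes of VEGF, angiopoietin, ephrin and Notch signalling 3 fell. DLL4, the Notch ligand of arterial and tip cells, read 208, 373 and 276 and then 120.1, 98.7 and 57.9, and NOTCH4, an endothelial Notch receptor, 745, 1650.2 and 1302 and then 603, 455 and 354. VEGFA read 2203, 1858 and 1823 and then 646, 1234 and 1088. The log2 differences were -1.49, -1.32 and -1.02 (adjusted p 0.0172, 0.0274 and 0.0415), and none passed against replicate 1, where they were -1.09, -0.68 and -1.19 (adjusted p 0.2399, 0.383 and 0.166). The angiogenic count was 0 without passage 1 replicate 2 or passage 4 replicate 3 and 1 without passage 1 replicate 3 or passage 4 replicate 2. Among 18 vasomotor genes 2 fell, and 0 against replicate 1. The vasomotor count was 0 without passage 1 replicate 2 or passage 4 replicate 2 or 3 and 1 without passage 1 replicate 1 or 3 or passage 4 replicate 1. PTGS2, the inducible cyclooxygenase, read 5671, 5106 and 4041 and then 2657, 2304 and 1449 (log2 -1.23, adjusted p 0.0336, against replicate 1 log2 -1.45 with adjusted p 0.141), and NOS3, endothelial nitric oxide synthase, 1175, 1857 and 1803 and then 1013, 728 and 684 (log2 -0.97, adjusted p 0.04503, against replicate 1 log2 -0.55 with adjusted p 0.4798). Of 16 coagulation genes only F3 and PLAU, urokinase, fell, PLAU at log2 -1.12 (adjusted p 0.0286, against replicate 1 log2 -0.76 with adjusted p 0.346). The coagulation count was 1 without passage 1 replicate 2 or passage 4 replicate 2 or 3. Of 14 junction genes 2 rose, GJA4 and JAM3, and 1 against replicate 1. The junction count was 0 without passage 1 replicate 2 or passage 4 replicate 2 or 3 and 1 without passage 4 replicate 1. GJA4, connexin 37 of arterial gap junctions, read 102, 217 and 338 and then 517, 569 and 926 and rose by 1.64 (adjusted p 0.0268), and by 2.497 against replicate 1 (adjusted p 0.0144). JAM3, a junctional adhesion molecule, read 155, 164 and 150.03 and then 329, 393 and 311 (log2 1.06, adjusted p 0.0215, against replicate 1 log2 1.07 with adjusted p 0.146).

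Matrix genes showed single strong members and no shift of structural collagens, of which 0 rose and 0 fell among 13 (3 at an unadjusted p under 0.05, and 1 rise without passage 4 replicate 3). Of 22 matricellular genes 2 rose, and 0 against replicate 1. The matricellular count was 0 without passage 1 replicate 2 or passage 4 replicate 3 and 1 without passage 4 replicate 1 or 2. BGN, the proteoglycan biglycan, read 475, 384 and 981 and then 1656, 1614 and 1598 (log2 1.497, adjusted p 0.0336, against replicate 1 log2 1.74 with adjusted p 0.142), and LOX, the collagen crosslinking oxidase, 1223, 366 and 505 and then 1998, 1948 and 4259 (log2 2.03, adjusted p 0.0193). LOX was high in replicate 1, and its rise against it was 1.05 (adjusted p 0.308). POSTN, periostin, read 1103, 729 and 685 at passage 1 and 5059, 9212 and 4892 at passage 4, with a log2 difference of 2.87 that did not pass (adjusted p 0.147). The shared spread includes the regenerated arrays, at 13.1, 1500 and 60.2, and with the 6 passage arrays alone its adjusted p was 0.00342. LUM, lumican, had 5.801, 17.9 and 14.1 and then 159.6, 159 and 96.7, also short of the threshold (adjusted p 0.143). POSTN and LUM are on the fibroblast marker list, of which 8 of 10 have a probe set and whose summed signal ran from 988 to 1417 at passage 1 and from 5419.5 to 9853 at passage 4. POSTN carried most of that sum: without it the sum ran from 303 to 362 and from 528 to 652. COL1A2 read 169, 191 and 122 and then 221, 167 and 161, overlapping between passages. COL3A1 and DPT of that list were dim in all 6 arrays, and none of its members passed. The part of fibroblast-like cells was not tested.

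A few proteases and growth factor carriers fell. Of 12 metalloproteinases and inhibitors 2 fell, and 9 lay below 0 (median -0.63). Against replicate 1 the median was -0.49 and 0 passed. The metalloproteinase count was 1 without passage 1 replicate 2 or 3 or passage 4 replicate 1, 2 or 3. MMP2, gelatinase A, read 3913, 5171 and 3217 and then 938, 1745 and 879 (log2 -1.82, adjusted p 0.00401, against replicate 1 log2 -1.78 with adjusted p 0.0549), and TIMP1, an inhibitor, 8247, 10580.3 and 8784 and then 5312, 4978 and 3629.6 (log2 -0.997, adjusted p 0.0451, against replicate 1 log2 -0.85 with adjusted p 0.348). IGFBP2, a carrier of insulin-like growth factors, read 200.2, 389 and 176 and then 2.94, 17.9 and 5.03, down to background, with a log2 difference of -3.43 (adjusted p 0.00515), and -3.18 against replicate 1 (adjusted p 0.0789). In the list of TGF-beta and BMP genes 2 of 18 rose, FST and TGFB2, and 1 against replicate 1. The TGF-beta count was 0 without passage 1 replicate 2 or passage 4 replicate 1 or 2 and 1 without passage 1 replicate 3 or passage 4 replicate 3. TGFB2 read 2588, 749 and 1104 and then 3974, 3676 and 3809.6, and its rise of 1.55 (adjusted p 0.0445) was 0.56 against replicate 1 (adjusted p 0.586). The median of that list changed sign, from -0.16 against all controls to 0.201 against replicate 1.

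The chains of the vitronectin receptor were called in opposite directions. ITGB3, the beta-3 integrin chain, read 622, 370.04 and 294 and then 77.6, 99.4 and 31.3 and fell by 2.41 (adjusted p 0.00551), with a difference of -2.996 against replicate 1 (adjusted p 0.0247). ITGAV, the alpha-V chain it pairs with, read 2782, 2630.5 and 2133 and then 3834, 4657 and 4427 and rose by 0.78 (adjusted p 0.0214, against replicate 1 log2 0.62 with adjusted p 0.255). In the actin list 2 of 37 rose, EPB41L3 and PFN2, profilin 2, the latter by 0.76 (adjusted p 0.01298, against replicate 1 log2 0.68 with adjusted p 0.1504), and the median was 0.07. The integrin count of rises was 0 without passage 1 replicate 2 or 3 or passage 4 replicate 2 or 3, and the actin count was 1 without passage 1 replicate 2 or passage 4 replicate 2 or 3. Of 9 neuronal and granule genes bright enough to test, 3 rose. Beside STMN2 these were SCG2, a granin, which read 33.5, 20.999 and 93.4 and then 893, 1750.1 and 2640.2 (log2 4.79, adjusted p 0.0281), and GABRA4, a GABA receptor chain, 94.8, 10.8 and 104 and then 533, 684 and 622 (log2 3.14, adjusted p 0.0109). Neither passed against replicate 1 (log2 5.03 and 2.498, adjusted p 0.176 and 0.181). Of 10 neural markers with a probe set 4 were tested, 0 rose and 1 fell. CHGA, SNAP25 and MAP2 read at most 21.9, 18.1 and 34.1. S100B fell from 232, 327 and 259 to 129.8, 141 and 59.5 (adjusted p 0.0366, against replicate 1 log2 -1.04 with adjusted p 0.311). UCHL1 of the same marker list was bright in every array. It read 11537, 10881 and 10570 and then 10612, 10452 and 10799.5, and did not pass (limma adjusted p 0.887).

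Some genes of oxidant defence and glucose uptake fell. Of 31 genes on the antioxidant list 6 fell and 0 rose, and against replicate 1 1 fell. Beside SOD3, GPX3, the secreted glutathione peroxidase, read 839, 1128 and 364 and then 152, 69.9 and 162. The list also holds TXNIP, which inhibits thioredoxin and is no antioxidant enzyme itself. It read 1014, 2359 and 3095 and then 254, 536 and 249.5. The log2 differences of GPX3 and TXNIP were -2.39 and -2.53 (adjusted p 0.0256 and 0.00515), and against replicate 1 -2.64 and -1.596 (adjusted p 0.139 and 0.0923). GCLC, the catalytic chain of glutathione synthesis, read 1005, 859 and 973 and then 356, 425 and 272, and MGST1 is a microsomal glutathione transferase; their log2 differences were -1.41 and -1.31 (adjusted p 0.0207 and 0.0286), and against replicate 1 -1.498 and -1.79 (adjusted p 0.131 and 0.0532). The antioxidant count was 1 without passage 1 replicate 2 or passage 4 replicate 3 and 2 without passage 4 replicate 1 or 2. SLC2A3, a high-affinity glucose transporter, read 5660.2, 5374 and 4855 and then 1599, 1893 and 1185 and passed in both comparisons (log2 -1.78, adjusted p 0.00406 and 0.0411). SLC2A1, the basal glucose transporter, fell by 1.17 (adjusted p 0.0198, against replicate 1 log2 -0.84 with adjusted p 0.265) and SLC16A3, the lactate exporter, fell by 1.21 (adjusted p 0.0411, against replicate 1 log2 -0.52 with adjusted p 0.533), while PDK4, which holds back pyruvate entry to the mitochondrion, rose by 1.701 (adjusted p 0.0452, against replicate 1 log2 1.91 with adjusted p 0.202). Of 20 members of the glucose list 3 fell and 1 rose, against 1 and 0 from replicate 1. The glucose count of falls was 1 without passage 1 replicate 2 or 3 or passage 4 replicate 1, 2 or 3 and 6 without passage 1 replicate 1, and that of rises 0 without passage 1 replicate 1, 2 or 3 or passage 4 replicate 1 or 2. None of the 40 respiratory chain, 25 fatty acid or 16 cholesterol genes tested by limma rose or fell, with 2, 5 and 1 at an unadjusted p under 0.05. Without passage 1 replicate 1, 1 fatty acid gene fell, and 1 cholesterol gene rose and 1 fell. In the aldehyde dehydrogenase list, where 2 of 12 rose and 1 against replicate 1, ALDH2 rose with ALDH1A1, by 0.597 (adjusted p 0.0366, against replicate 1 log2 0.47 with adjusted p 0.344).

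Lysosomal genes were mostly a little lower, 28 of 33 lying below 0 (median -0.28, and -0.17 against replicate 1), and 3 fell, of which 1 passed against replicate 1. CTSS, cathepsin S, which trims the class II invariant chain, read 3881, 2719 and 3664 and then 1581, 1701 and 1929 and passed in both comparisons (log2 -0.96, adjusted p 0.009098 and 0.0386). GRN, progranulin, fell by 0.96 (adjusted p 0.0396, against replicate 1 log2 -0.54 with adjusted p 0.465), and LAMP2, a lysosomal membrane protein, fell by 0.57 (adjusted p 0.0454, against replicate 1 log2 -0.72 with adjusted p 0.139). Of 21 genes of the amino acid response 2 fell, and 0 against replicate 1. These were DDIT3, the CHOP factor (log2 -1.21, adjusted p 0.0193, against replicate 1 log2 -1.23 with adjusted p 0.139), and CEBPB (log2 -1.003, adjusted p 0.0286, against replicate 1 log2 -1.17 with adjusted p 0.121). The lysosomal count was 1 without passage 1 replicate 2 or 3 or passage 4 replicate 1, 2 or 3, and the amino acid response count was 0 without passage 4 replicate 1 or 2 and 1 without passage 1 replicate 2. HSPA2 was the only member of 28 chaperones to fall (log2 -1.18, adjusted p 0.0268, against replicate 1 log2 -1.396 with adjusted p 0.0923).

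Of 15 regulators of G-protein and MAP kinase signalling 3 fell and 1 rose, against 1 and 0 from replicate 1. The regulator count of falls was 1 without passage 1 replicate 2 or passage 4 replicate 3 and 5 without passage 1 replicate 1, and that of rises 0 without passage 1 replicate 2 or 3 or passage 4 replicate 2 or 3. RGS2, which shortens signalling through Gq, read 6808, 4013 and 4715 and then 1466, 2054 and 1909, a log2 difference of -1.49 (adjusted p 0.00427) and of -1.92 against replicate 1 (adjusted p 0.009698). RGS4 read 541, 939 and 1316 and then 45.2, 272 and 65.5 (log2 -2.98, adjusted p 0.0268, against replicate 1 log2 -2.303 with adjusted p 0.301), and DUSP1, a phosphatase of MAP kinases, 5118, 4996 and 4209.7 and then 2513, 2902 and 2322 (log2 -0.89, adjusted p 0.0127, against replicate 1 log2 -0.99 with adjusted p 0.07405). JUN, the AP-1 factor, read 1139, 538 and 462 and then 1459.6, 1679 and 2335 and rose by 1.42 (adjusted p 0.0235), but by 0.64 against replicate 1 (adjusted p 0.344).

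Replicate 1 lay nearer to passage 4 than to its fellow controls for 12 of the 103 genes that rose and 14 of the 162 that fell. Beside ALDH1A1, TYMS, LOX and CCL5 the largest were TMEM115, ARRDC4, FAM234A and MAPK13. TMEM115, a Golgi membrane protein, read 119, 2.45 and 21.8 and then 244, 184 and 197, and its rise of 2.295 became 0.73 against replicate 1 (adjusted p 0.0405 and 0.5597). ARRDC4, an arrestin-domain relative of TXNIP, read 205, 899 and 504 and then 58.7, 124 and 68.7, and its log2 difference of -2.299 became -1.21 (adjusted p 0.0155 and 0.262). FAM234A had a log2 difference of -2.08, or -1.21 against replicate 1 (adjusted p 0.0131 and 0.238), and MAPK13, p38 delta, rose by 1.62, or by 0.94 against replicate 1 (adjusted p 0.0207 and 0.312). Going the other way, 11 genes passed against replicate 1 alone. AREG, the EGF receptor ligand amphiregulin, was the clearest of them by adjusted p, reading 852, 4035 and 3000 at passage 1 and 6368, 6376 and 6941 at passage 4 (log2 2.92 against replicate 1, adjusted p 0.00286, and 1.58 against all controls, adjusted p 0.0594).

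Genes measured by several probe sets gave a check within the arrays. Of 1603 such genes, 165 had at least 1 probe set past the threshold. In 122 of these every probe set had the same sign, in 33 at least 1 more passed the same way, and 0 had probe sets passing in opposite directions. The widest disagreement was in SAA2, serum amyloid A, where a probe set fell by 3.78 (adjusted p 0.000246) while another had a difference of 0.69 (adjusted p 0.218). In RACK1, a ribosomal scaffold, a dimmer probe set fell by 2.71 (adjusted p 0.00401) and the brightest had 0.15. WDR1, ACADVL, HSP90AA1 and QSOX1 each had a probe set that rose, by 3.55, 3.47, 2.28 and 2.07, and another below 0 that did not pass. Against replicate 1 the log2 differences of the probe sets that rose were much smaller, at 0.77, 0.898, 0.72 and 0.83. The probe sets of SAA2 and RACK1 that fell lay further from replicate 1 than from the passage 1 mean. The probe sets that passed in these 6 genes are among the 733 counted above, but in no count of genes or list members, which use each gene's brightest tested probe set.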

How the data were processed

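The authors deposited MAS5 signal intensity values, 1 per probe set and array, with MAS5 named in the submitters' processing notes; no version or further step is recorded in those notes. Each array's mean after trimming 2% at each end was near the same value, so no further scaling was applied. Of 24123 probe sets 124 controls were set aside, and 15299 with at least 3 of 9 arrays above their own 40th percentile were tested. Symbols came from the platform annotation, which names 1 gene for 10099 probe sets, several for 198 and none for 13826; 9989 matched RefSeq by gene number. Log2(signal + 16) was fitted with limma 3.58.1 in R 4.3.3, with a mean per group over all 9 arrays, empirical Bayes with an intensity trend, two-sided tests and Benjamini-Hochberg adjustment over all tested probe sets; the block fit added the labelling kind read from the spike-ins. The script was tested on simulated data. Alternatives changed the pseudocount, filter, scaling, variance model, blocks and arrays used. Array number limits the precision.

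Members and lists were chosen with earlier results of these data known. Named genes were the 12 largest rises and 12 largest falls passing in both fits, up to 4 members past the threshold per list, any list member given with its values, up to 8 genes whose passage 1 replicate 1 lay nearer passage 4, and up to 6 genes with discordant probe sets; others are said to be chosen after their values were seen. A planned look at promoter sequences was not run, and no coordinates are given because the sources used here name no build.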

Additional observations from a re-analysis of the deposited data

How the results depend on the processing

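Against the 733 probe sets past the threshold (415 up, 318 down), 150 passed with the labelling kind as a block (71 up, 79 down), 126 of them among the 733. Leaving out 1 array at a time gave 244 to 1403 in all, 124 to 882 up and 120 to 521 down: 1403 without passage 1 replicate 1, 244 without replicate 2, 521 without replicate 3 (257 up), and 310, 300 and 262 without passage 4 replicates 1, 2 and 3. The other alternatives kept the total within 1.5 times, from 505 with no filter to 831 with a pseudocount of 64.

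Same-numbered arrays had deviations from their group means correlated at -0.14, -0.14 and -0.07. The passage 1 arrays differ in labelling kind and the passage 4 arrays do not, so these values cannot show whether replicate numbers pair the arrays. With a replicate block 549 probe sets passed (310 up, 239 down). Of 131 named genes past the threshold, 87 lost it with the labelling block, 63 without passage 1 replicate 2, 63 without passage 4 replicate 3 and 24 with the replicate block, and none changed sign under any alternative. The brightest probe sets of ACADVL, WDR1 and HSP90AA1, near 0 and past no threshold, changed sign: ACADVL to 0.26 and WDR1 to 0.34 with the labelling block, and HSP90AA1 to -0.0016 with median centring. With 1 array left out in turn they ran from -0.38 to 0.10, from -0.27 to 0.15 and from -0.032 to 0.091. The cause was not tested. Medians of the interferon, antigen, chemokine, complement, metalloproteinase, lysosome, antioxidant, mitosis, replication and chromatin lists kept their sign throughout. No alternative moved the median of all genes by over 0.1.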

Other observations

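Genes on no list, are given here as single values picked after they were seen, with no count or test of a group behind them. SKA1 and KNSTRN of the kinetochore and spindle, CIT of cytokinesis, SPAG5 of the spindle and PIMREG rose, by 1.11, 0.92, 1.19, 1.196 and 1.52 in log2 (limma adjusted p 0.03104, 0.0285, 0.0177, 0.0277 and 0.0224). Against replicate 1 the differences were 1.47, 0.85, 1.25, 1.23 and 1.32 (adjusted p 0.0638, 0.214, 0.113, 0.172 and 0.227). CIT read 110.2, 125 and 112 at passage 1 and 314, 268 and 275 at passage 4. PML, the nuclear body protein, read 471, 518 and 426 and then 159, 175 and 185, ISG12(A) 15047, 14705 and 14807 and then 5091, 6309 and 6035, and PARP12 3843, 3114 and 2365 and then 1369.8, 794 and 1043. All fell, at log2 -1.37, -1.36 and -1.53 (adjusted p 0.00509, 0.00479 and 0.00466), and against replicate 1 at -1.37, -1.38 and -1.86 (adjusted p 0.0549, 0.0597 and 0.0212). SP140, a chromatin reader of immune cells, read 1553, 2113 and 1822 and then 484, 599 and 619. BLNK, a B-cell linker, read 96.7, 44.4 and 45.3 and then 9.62, 6.31 and 1.27. It was already dim in passage 1 replicates 2 and 3, close above the 40th percentiles of those arrays at 37.2 and 41.9. CASP1, the inflammatory caspase, fell by 1.696 (adjusted p 0.0372, against replicate 1 log2 -1.91 with adjusted p 0.174), UBD fell by 2.13 (adjusted p 0.0398, against replicate 1 log2 -2.92 with adjusted p 0.0689) and LGALS9, galectin 9, fell by 2.26 (adjusted p 0.00436, against replicate 1 log2 -1.94 with adjusted p 0.0713).

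TBX2, SATB1 and NR2F1 encode transcription factors and were picked in the same way. TBX2 read 3.09, 16.7 and 18.97 at passage 1 and 123, 112 and 186 at passage 4, SATB1 113, 71.6 and 70.2 and then 268, 237 and 265, and NR2F1 35.1, 35.1 and 61.998 and then 129, 139 and 234. Their rises were 2.45, 1.46 and 1.596 (adjusted p 0.03799, 0.00943 and 0.0128), and none passed against replicate 1 (adjusted p 0.132, 0.159 and 0.0689). VGLL3, a cofactor of TEAD factors, read 290.5, 312 and 123 and then 1534, 1584 and 1298 (log2 2.62, adjusted p 0.00395, against replicate 1 log2 2.27 with adjusted p 0.06701). The atypical cadherin FAT1 read 549.5, 697 and 885 and then 1890.3, 2281 and 1565 and passed in both comparisons (log2 1.42, adjusted p 0.00578 and 0.0258), as did EIF4EBP2, a repressor of cap-dependent translation, at 187, 173 and 183 and then 619, 592 and 506 (log2 1.57, adjusted p 0.00149 and 0.0278). LRIG1, a brake on EGF receptors, rose by 1.86 (adjusted p 0.0214, against replicate 1 log2 2.27 with adjusted p 0.0709).

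Of the 733 probe sets past the threshold, 330 carry no symbol or several. The one with the largest fall read 6546, 409 and 365 at passage 1 and 113, 45.6 and 9.796 at passage 4, with replicate 1 far above its fellow controls. The one with the largest rise read 159.8, 71.8 and 101 and then 3106, 1287 and 701.

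Single control arrays differed in how far they stood from passage 4. At least 2-fold from the passage 4 mean were 696 probe sets upward and 637 downward against replicate 1, 1453 and 787 against replicate 2, and 1145 and 689 against replicate 3. Between controls themselves, 1798 and 2079 probe sets separated replicate 1 from replicates 2 and 3 by that much, and 957 separated replicates 2 and 3. Between passage 4 arrays the counts were 601 to 712.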
